A study of Mus musculus with 24 samples.

Results

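The transcripts described here encode the machinery that stores calcium in the sarcoplasmic reticulum, the internal calcium store of the muscle fibre, and that takes calcium up from the cytosol. They are 10 genes of 55487 measured, chosen by name: the calcium pumps Atp2a1 and Atp2a2, the small pump inhibitors Sln and Pln, the calcium binders of the reticulum lumen Casq1, Casq2, Srl and Hrc, the cytosolic calcium buffer Pvalb, and the junction membrane gene Sypl2. RNA was sequenced from the gastrocnemius, a calf muscle, of 24 male C57BL/6J mice, labelled as 12 weeks old and 10 weeks old on receipt, with 1 library per mouse and 8 mice in each of 3 groups. The uncasted mice received water, the casted mice received water with casting material on both hindlimbs, and the casted mice with MOTS-c had the same casts and received MOTS-c, a peptide encoded in mitochondrial DNA, at 15 mg/kg/day; all injections were intraperitoneal, 2 a day over 8 days. All groups shared strain, sex and age, and no mouse received MOTS-c without a cast, so an effect of MOTS-c in unimmobilized muscle was not measured. The values are TPM, a gene's share of the library's transcripts, corrected for transcript length and summing to the same total in each library. They were scaled between libraries to the middle of all genes, and depth is unknown, so no counting interval can be given.

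In a resting fibre most calcium lies inside the reticulum, where calsequestrin binds it close to the release channel. A nerve signal opens the channel, calcium binds troponin C and the fibre contracts, and the ATP-driven pumps then carry calcium back while parvalbumin binds part of it in the cytosol of fast fibres. Sarcolipin and phospholamban are small membrane proteins that bind the pump and lower its uptake of calcium, and sarcolipin also makes the pump spend ATP without moving calcium. Fast fibres use SERCA1, the product of Atp2a1, with CASQ1 and parvalbumin. Slow fibres and heart use SERCA2, the product of Atp2a2, and CASQ2 is found in both.

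The reading frames of the 2 small inhibitors are given with that of Mrln, which encodes myoregulin, another small pump inhibitor of muscle. These short proteins bind calcium pumps of the reticulum, and Sln rose while Mrln fell with casting. The frames are printed 5′ to 3′ from GENCODE transcripts on GRCm38, and capitals mark the start codon and the stop codon. The Sln frame lies at chr9:53853473-53853568, the Pln frame at chr10:53343864-53344022 and the Mrln frame at chr10:70219496-70219636, all on the plus strand.
Sln: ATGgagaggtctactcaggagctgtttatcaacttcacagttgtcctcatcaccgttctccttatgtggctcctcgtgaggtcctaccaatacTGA
Pln: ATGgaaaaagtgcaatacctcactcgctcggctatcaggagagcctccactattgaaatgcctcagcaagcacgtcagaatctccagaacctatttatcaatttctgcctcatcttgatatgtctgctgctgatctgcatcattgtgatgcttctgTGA
Mrln: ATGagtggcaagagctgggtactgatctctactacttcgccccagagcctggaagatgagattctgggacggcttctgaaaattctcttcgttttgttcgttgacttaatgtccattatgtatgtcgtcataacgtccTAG
The Sln frame has 96 bases and 31 codons before the stop, the Pln frame 159 bases and 52 codons, and the Mrln frame 141 bases and 46 codons.

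A RefSeq table of promoters on GRCm38.p6 held 7 of the 10 genes: Atp2a1, Pln, Casq1, Casq2, Pvalb, Hrc and Sypl2. The 250 bases before the annotated start are shown for Casq1, Pvalb and Sypl2, since Casq1 had its highest correlations among the 10 genes with Pvalb and Sypl2, as described further on. All 3 genes lie on the minus strand, and the stretches are Casq1 at chr1:172219896-172220145, Pvalb (the more distal of 2 starts) at chr15:78206401-78206650 and Sypl2 at chr3:108226600-108226849. Capitals mark an E-box (CANNTG, a site type bound by MyoD-family factors) or a MEF2-type A/T-rich site.
Casq1: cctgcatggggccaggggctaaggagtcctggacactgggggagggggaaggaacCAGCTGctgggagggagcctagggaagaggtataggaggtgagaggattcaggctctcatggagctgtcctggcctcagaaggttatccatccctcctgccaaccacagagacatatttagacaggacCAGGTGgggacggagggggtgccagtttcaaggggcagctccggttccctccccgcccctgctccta
Pvalb: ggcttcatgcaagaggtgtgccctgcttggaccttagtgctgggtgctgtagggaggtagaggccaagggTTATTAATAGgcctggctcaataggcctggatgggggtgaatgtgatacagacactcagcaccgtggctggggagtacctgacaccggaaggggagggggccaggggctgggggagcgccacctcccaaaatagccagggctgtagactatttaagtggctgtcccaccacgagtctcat
Sypl2: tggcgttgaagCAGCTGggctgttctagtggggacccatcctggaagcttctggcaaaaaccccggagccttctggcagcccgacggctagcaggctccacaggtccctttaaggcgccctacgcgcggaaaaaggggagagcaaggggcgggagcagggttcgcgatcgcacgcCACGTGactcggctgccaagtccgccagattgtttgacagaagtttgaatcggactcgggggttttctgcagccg
Casq1 held an E-box whose first base lay at -195 and another at -67 from the start, Sypl2 held them at -239 and -75, and Pvalb held a MEF2-type match at -180 and no E-box at this start. The same search, on both strands of 300 bases from 250 before to 50 after the start, found an E-box in 72.3% and a MEF2-type match in 3.19% of 32851 promoters. Casq2 also held a MEF2-type match, at -69, and none of the 7 genes held a CArG box (1.63% of all promoters) or TGACGTCA (1.79%). TATAAA was found in Pln (13.6% of all promoters) and GGAAAA in Sypl2 (23.4%), and these 2 are not capitalised. MEF2-type and CArG matches can overlap one another, and a match describes these letters only.

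The 10 genes differed widely in level in uncasted muscle. Atp2a1 had rank 19 of the 14690 genes tested by mean scaled TPM, Pvalb rank 24 and Casq1 rank 43, while Pln had rank 10140 and Sln rank 13175. Together the 10 genes took 2.44% ± 0.08 (SD, n = 8) of all TPM in uncasted, 1.82% ± 0.19 in casted and 1.93% ± 0.23 in casted muscle with MOTS-c. In the uncasted group the order of mean levels was Atp2a1, Pvalb, Casq1, Srl, Hrc, Sypl2, Atp2a2, Casq2, Pln and Sln, and only the neighbours Srl and Hrc, and Pln and Sln, had overlapping ranges. In casted muscle Sln moved from last to 8th place, at rank 3955 of all genes, and its range overlapped those of its neighbours Sypl2 and Casq2.

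The tissue label was checked on markers. Summed over 8 genes, fast-fibre markers had a median of 119093 scaled TPM and slow-fibre markers 1386 in uncasted muscle, so fast-fibre transcripts predominated. The labels name no fibre type. Both sums were lower in casted muscle, at medians of 64930 and 701, and their ranges in casted and uncasted libraries did not overlap. In whole muscle, fewer cells of a type and less RNA per cell cannot be told apart. Libraries held between 19832 and 21755 genes above 0, and no 2 libraries shared equal values at more than 1.34% of tested genes. On the first principal component, which held 50.05% of the variance, the uncasted libraries lay between -40.9 and -39.7, and the casted libraries between 6.39 and 36.5. Of the libraries with MOTS-c, 7 lay between 13.7 and 29.6, whereas replicate 5 lay at -17.8, and that library had the highest Casq1, Pvalb, Srl, Hrc, Atp2a1 and Sypl2 and the lowest Sln of its group. Casted replicates 1 to 4 lay between 6.39 and 25.8 and replicates 5 to 8 between 29.5 and 36.5; the labels name no batch, and the differences against each set of 4 casted mice are given beside the results they move most.

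The first comparison asks what 8 days in a cast changed. Sln rose, Casq1, Sypl2, Pvalb and Srl fell between 2.04-fold and 4.43-fold, and Pln did not pass the test. Hrc, Atp2a1, Casq2 and Atp2a2 fell by less relative to the middle of all genes, while on the deposited TPM none of these 4 passed and Atp2a2 was 0.12 higher. By limma on log2(scaled TPM + 1), 1 gene was higher and 8 were lower at an adjusted p under 0.05, where 28.7% of all tested genes were higher and 27.7% lower. The higher gene, Sln, entered the test through the casted groups, since it reached 0.5 TPM in only 4 of 8 uncasted libraries. Its call and its separate range are therefore given as descriptions. The median change of the 10 genes was -0.62, against 0.01 over all genes. Their ranges did not overlap between casted and uncasted libraries for 6 lower genes and for Sln, where 10.9% of all tested genes lay wholly lower and 11.5% wholly higher. The scale matters for the smaller changes. On the deposited TPM the median gene was 0.39 higher (log2) in casted muscle. There 62.2% of genes were called higher and 7.43% lower, and of the 10 genes only Casq1, Sypl2, Pvalb and Srl were still lower, with Sln higher. Of all genes called, 4223 were higher and 4074 lower on the scaled values, and 9132 and 1091 on the deposited TPM.

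**Figure D1:**
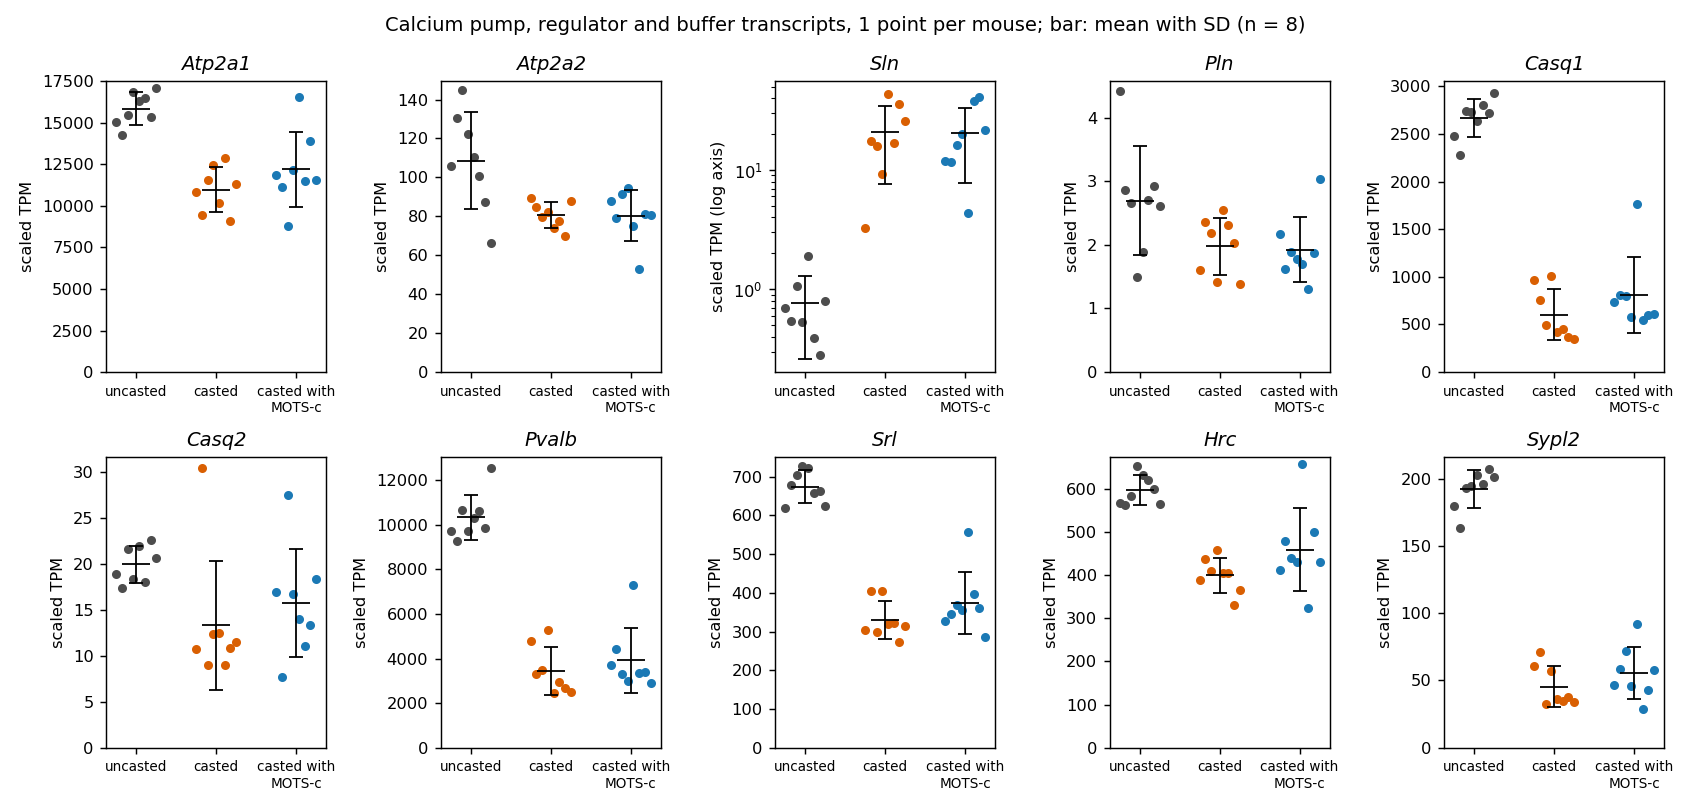
Scaled TPM of the 10 genes (y axis; logarithmic for Sln, from 0 for the others) in the 3 groups (x axis), with 1 point per mouse in order of replicate number and bars for the mean and SD (n = 8). Casq1 lay between 2283 and 2928 in uncasted and between 350.1 and 1013 in casted libraries, and Sln between 0.281 and 1.88 and between 3.27 and 43.2.

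Atp2a1 encodes SERCA1, the pump of fast fibres (ENSMUSG00000030730, GRCm38 chromosome 7, 126445858 to 126463108, minus strand). Its lowest, median and highest scaled TPM were 14256, 15891 and 17109.8 in uncasted, 9076, 11097 and 12878 in casted, and 8808, 11725 and 16556 in casted muscle with MOTS-c. Every casted library lay below every uncasted one, and 1 library with MOTS-c, replicate 5, lay within the uncasted range. The casted mean was 10974 ± 1356 against 15861 ± 988 (SD, n = 8), a difference of -0.54 ± 0.10 (SE) in log2, with a limma adjusted p of 9.06e-05. The deposited TPM gave means of 12574 ± 1392 and 12702 ± 412, a difference of -0.02 (limma adjusted p = 0.791), so the fall of this pump depended on the scale. Its rank went from 19 to 14 of 14690. Exons of Rabep2 on the opposite strand overlap 763 of its exonic bases, but Rabep2 had a mean of 7.26 TPM.

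Atp2a2 (ENSMUSG00000029467, chromosome 5, 122453513 to 122502225, minus strand) encodes SERCA2, whose muscle isoform serves slow fibres and heart and whose general isoform is found in most cells. Lowest, median and highest values were 66.0, 108 and 145 in uncasted, 69.6, 80.9 and 89.6 in casted, and 53.1, 80.9 and 94.7 in casted muscle with MOTS-c. The groups overlapped, and the uncasted mice were spread most widely. The casted mean of 80.7 ± 6.82 lay below the uncasted 109 ± 24.8 (SD, n = 8), a fall of -0.39 ± 0.12 in log2 (limma adjusted p = 0.00907). Against casted mice 1 to 4 alone the call was lost (-0.33, limma adjusted p = 0.105), and on the deposited TPM the gene was 0.12 higher (limma adjusted p = 0.473). Endothelial and smooth-muscle cells also express this pump. All 6 of 6 endothelial and 6 of 8 smooth-muscle and pericyte markers fell on the scaled values (2 and 1 on the deposited TPM, where 1 endothelial marker rose), with summed medians that went from 117 to 83.0 and from 277 to 190 scaled TPM, and their part in the result was not tested. A short processed pseudogene, Gm30970, matches a stretch of its transcript at 99.2% identity and had 1.63 TPM, so a small part of these reads is uncertain.

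The balance of the 2 pumps was read from their ratio. Within a library, a ratio of TPM does not depend on the scaling. The median number of Atp2a1 transcripts per Atp2a2 transcript was 145 in uncasted, 134 in casted and 142 in casted muscle with MOTS-c. The log2 ratio of Atp2a2 to Atp2a1 differed between casted and uncasted mice by 0.14 (exact permutation test, two-sided, p = 0.407, adjusted p = 0.610 over 9 ratio tests), less than the spread between uncasted mice, whose SD was 0.41.

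Sln (ENSMUSG00000042045, chromosome 9, 53850164 to 53854560, plus strand) encodes sarcolipin, the small inhibitor whose frame is printed above, typical of atrium and, in mice, of slow skeletal muscle. Lowest, median and highest scaled TPM were 0.281, 0.618 and 1.88 in uncasted, 3.27, 17.2 and 43.2 in casted, and 4.33, 18.1 and 40.8 in casted muscle with MOTS-c. All 16 casted libraries lay above all 8 uncasted ones, and the mice within each casted group were spread widely, with a coefficient of variation of 63.6% in casted mice. The mean was 0.771 ± 0.510 in uncasted and 21.0 ± 13.3 in casted muscle, a ratio of means of 27.2. The limma difference was 3.39 ± 0.39 in log2 (adjusted p = 1.10e-07), and 4.44 with a pseudocount of 0.1 in place of 1, since this scale understates the change of low genes. The first 4 casted mice alone gave 2.65 and the last 4 gave 4.12, and both passed. Sln reached the minimum of 0.5 TPM in 4 uncasted libraries and in all 16 casted ones, so it entered the test through the casted groups.

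Sln is a marker of atrial muscle, so other atrial genes were read beside it. Nppa and Myl7 did not reach the minimum for testing, Myh6 gave -0.81 (limma adjusted p = 0.0982), and Myl4, a myosin light chain of atrium and of developing skeletal muscle, rose by 0.95 (limma adjusted p = 0.00016). The median number of Atp2a1 transcripts per Sln transcript was 24004 in uncasted muscle, with a range of 8654 to 54590.3. In casted muscle it was 637, between 235 and 3320 per mouse. The log2 ratio of Sln to Atp2a1 rose by 5.20, or 36.7-fold (exact permutation test, two-sided, p = 0.0001554, the smallest this design can give, adjusted p = 0.000466). The size of this rise is uncertain, since uncasted Sln was near the floor, between 0.281 and 1.88 scaled TPM. Across 4 alternative settings the difference lay between 3.71 and 6.01. All 8 casted mice lay above all uncasted ones, and the transcript of the pump remained in large excess over that of its inhibitor.

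Pln encodes phospholamban, the inhibitor of SERCA2 in heart and slow muscle (ENSMUSG00000038583, chromosome 10, 53337667 to 53345987, plus strand). It was barely expressed, with lowest, median and highest scaled TPM of 1.4999, 2.68 and 4.42 in uncasted, 1.39, 2.11 and 2.54 in casted, and 1.31, 1.83 and 3.04 in casted muscle with MOTS-c. The casted change was -0.29 ± 0.13 (limma adjusted p = 0.0554), which did not pass. It passed when any of 5 single libraries was left out (uncasted 4 or 5, casted 2 or 5, or MOTS-c 8; adjusted p between 0.0134 and 0.0462), and on the deposited TPM it was 0.06 higher (limma adjusted p = 0.714). These values are uncertain, since exons of Cep85l on the opposite strand overlap 141 of its exonic bases and Cep85l had 43.5 TPM, and Gm47644, also on the opposite strand, overlaps 1644 of its exonic bases and had 4.13 TPM, and it is not known here whether reads were assigned by strand. The ranges of Pln and Sln overlapped in uncasted mice, whereas the lowest casted Sln, at 3.27, lay above the highest casted Pln, at 2.54.

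**Figure D2:**
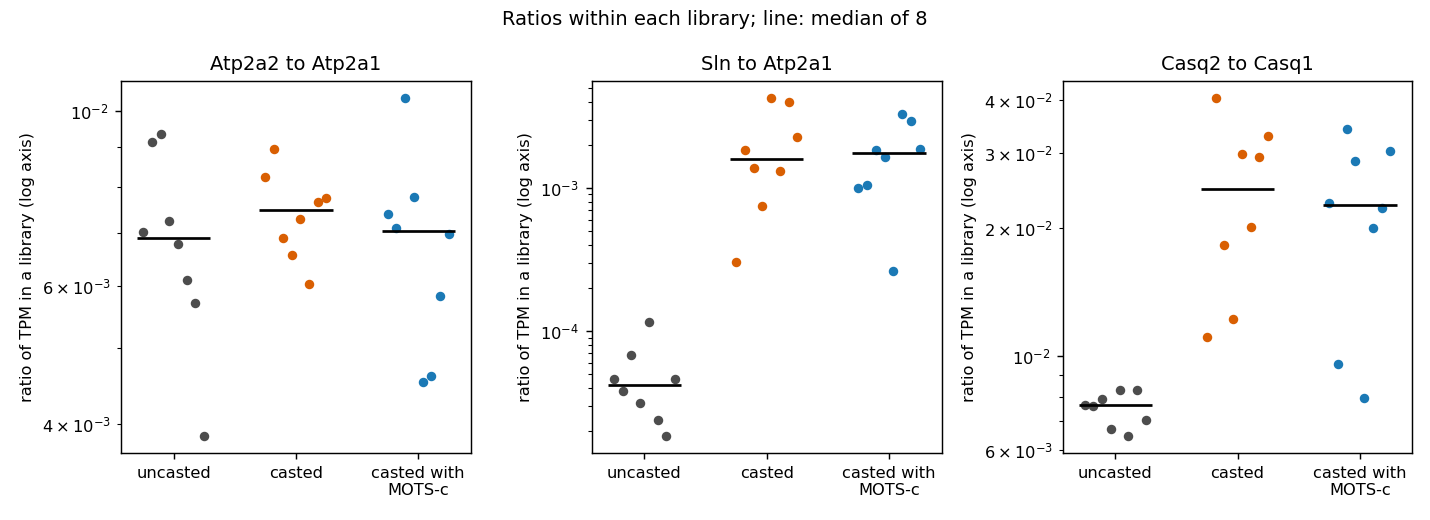
Ratios of deposited TPM within each library (y axis, logarithmic) for 3 gene pairs in the 3 groups (x axis), with 1 point per mouse and a line at the median of 8. Sln to Atp2a1 separated the casted from the uncasted mice completely, Casq2 to Casq1 did so without MOTS-c, and Atp2a2 to Atp2a1 overlapped in all groups.

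Casq1 encodes calsequestrin of skeletal muscle, the main calcium binder of the reticulum lumen (ENSMUSG00000007122, chromosome 1, 172209894 to 172219868, minus strand). Lowest, median and highest scaled TPM were 2283, 2731 and 2928 in uncasted, 350.1, 472 and 1013 in casted, and 551, 672 and 1765 in casted muscle with MOTS-c. No casted library reached the uncasted range, and the coefficient of variation was 7.54% in uncasted and 44.9% in casted mice. The mean fell from 2669 ± 201 to 602 ± 271 (SD, n = 8), a factor of 4.43, and by 3.13 on the deposited TPM. The limma difference was -2.26 ± 0.22 (adjusted p = 8.91e-09). The first 4 casted mice alone gave -1.77 and the last 4 gave -2.75. Gm17224, an antisense transcript over 156 of its exonic bases, had 0.520 TPM.

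Casq2 (ENSMUSG00000027861, chromosome 3, 102086415 to 102146514, plus strand) encodes calsequestrin of heart and slow fibres. Lowest, median and highest values were 17.4, 19.8 and 22.7 in uncasted, 8.99, 11.2 and 30.5 in casted, and 7.74, 15.4 and 27.5 in casted muscle with MOTS-c. Of the casted mice 7 lay below all uncasted ones, and replicate 2, at 30.5, lay above all of them. The change was -0.65 ± 0.20 (limma adjusted p = 0.00763), and -0.82 without casted replicate 2 (limma adjusted p = 0.000101). The call was lost against casted mice 1 to 4 alone (-0.48, limma adjusted p = 0.136) or on the deposited TPM (-0.16, limma adjusted p = 0.499). Summed slow-fibre markers in casted replicate 2 were 768 scaled TPM, the second highest of a group with a range of 427 to 823, and their part in the high Casq2 of this mouse was not tested.

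Casq1 thus fell further than Casq2. The median number of Casq1 transcripts per Casq2 transcript was 131 in uncasted muscle, between 120.2 and 155, and 41.9 in casted muscle, between 24.7 and 90.3. The log2 ratio of Casq2 to Casq1 rose by 1.57, or 2.97-fold, with casting (exact permutation test, two-sided, p = 0.0001554, adjusted p = 0.000466), and all casted mice lay above all uncasted ones. With MOTS-c against uncasted mice it rose by 1.40, or 2.65-fold (exact permutation test, two-sided, p = 0.000466, adjusted p = 0.00105), with 1 mouse, replicate 5, at 126 Casq1 per Casq2 within the uncasted range.

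Srl encodes sarcalumenin, a calcium-binding glycoprotein of the lumen that lies with the pump in the longitudinal reticulum (ENSMUSG00000022519, chromosome 16, 4480216 to 4541816, minus strand). Its values were 618, 670.1 and 728 in uncasted, 273, 316 and 405 in casted, and 286, 358 and 556 in casted muscle with MOTS-c, as lowest, median and highest. The groups did not overlap, and the change was -1.04 ± 0.10 (limma adjusted p = 6.23e-09), or a 2.04-fold fall in the mean. With the deposited TPM it was -0.52 (limma adjusted p = 2.4e-06).

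Hrc encodes the histidine-rich calcium-binding protein, which binds calcium in the lumen and contacts triadin (ENSMUSG00000038239, chromosome 7, 45335290 to 45338974, plus strand). Here the values were 562, 591 and 652 in uncasted, 329, 404 and 459 in casted, and 323, 436 and 657 in casted muscle with MOTS-c. All casted libraries lay below all uncasted ones, with a change of -0.58 ± 0.09 (limma adjusted p = 1.13e-05). For the deposited TPM, however, the change was -0.07 (limma adjusted p = 0.455), like that of Atp2a1.

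Pvalb encodes parvalbumin, the soluble buffer that speeds relaxation of fast fibres (ENSMUSG00000005716, chromosome 15, 78191114 to 78206400, minus strand). Lowest, median and highest scaled TPM were 9261, 10094 and 12550.2 in uncasted, 2445, 3122 and 5301 in casted, and 2891, 3383 and 7317 in casted muscle with MOTS-c. No casted library reached the uncasted range. The mean fell from 10348 ± 1013 to 3428 ± 1073 (SD, n = 8), or 3.02-fold, with a limma difference of -1.64 ± 0.17 (adjusted p = 1.94e-08), and -1.13 on the deposited TPM (limma adjusted p = 8.81e-08). The first 4 casted mice alone gave -1.32 and the last 4 gave -1.97.

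Sypl2 encodes mitsugumin 29, a synaptophysin-like membrane protein of the triad, where the reticulum meets the transverse tubule (ENSMUSG00000027887, chromosome 3, 108211472 to 108226648, minus strand). Its lowest, median and highest values were 164, 195 and 207 in uncasted, 32.3, 37.1 and 70.9 in casted, and 29.1, 52.4 and 91.8 in casted muscle with MOTS-c. The mean fell 4.23-fold, from 192 ± 14.2 to 45.5 ± 15.0 (SD, n = 8), and every casted library was below every uncasted one. This was the smallest adjusted p of the 10 genes (-2.11 ± 0.18, limma adjusted p = 9.76e-10), and on the deposited TPM the change was -1.60 (limma adjusted p = 1.33e-08). Casted mice 1 to 4 alone gave -1.83 and 5 to 8 gave -2.39. Its rank went from 479 to 2056 of 14690.

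The second comparison asks whether MOTS-c changed these transcripts in casted muscle. None of the 10 genes passed by limma, none had an unadjusted p under 0.05, and 0.0204% of all tested genes (3 of 14690) were called, where 1986 had an unadjusted p under 0.05. The differences, casted with MOTS-c minus casted, were positive for 8 genes and negative for 2, with a median of 0.18 against -0.00 over all genes. Casq1 had the largest, 0.43 ± 0.22 (limma adjusted p = 0.400, 95% interval -0.03 to 0.89), with a mean of 807 ± 400 against 602 ± 271 (SD, n = 8) and 5 of 8 mice above the casted mean. Leaving out MOTS-c replicate 5 gave 0.26 (limma adjusted p = 0.666). Against casted replicates 1 to 4 alone the difference was -0.06 (limma adjusted p = 0.996), and against 5 to 8 alone it was 0.92 (limma adjusted p = 0.0101), where 4.62% of all genes were called higher. The Casq1 difference therefore changed sign with the casted mice it was set against. Casted replicates 5 to 8 had Casq1 between 350.1 and 448 scaled TPM, and 1 to 4 between 497 and 1013. The larger difference against 5 to 8 thus follows from how the casted mice were divided.

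Sypl2 followed with 0.27 ± 0.18 (limma adjusted p = 0.517), Casq2 with 0.25 ± 0.20 (limma adjusted p = 0.596) and Pvalb with 0.19 ± 0.17 (limma adjusted p = 0.650). Hrc was 0.18 ± 0.09 higher (limma adjusted p = 0.408), and 7 of 8 mice lay above the casted mean. Srl gave 0.17, Atp2a1 0.14, Atp2a2 -0.02 and Pln -0.03. Sln differed by 0.01 ± 0.39 (limma adjusted p = 0.992), with a 95% interval from -0.80 to 0.82. That interval does not show that MOTS-c left Sln unchanged. Set against casted mice 1 to 4 alone, Sln was 0.74 higher with MOTS-c, and against 5 to 8 alone it was -0.72, so the value near 0 lies between opposite ones, neither of which passed (limma adjusted p = 0.995 and 0.235). In the same way Pvalb gave -0.14 and 0.51, and Sypl2 -0.01 and 0.55, and none of these passed. Without MOTS-c replicate 5, Pvalb went from 0.19 to 0.05, Srl from 0.17 to 0.09, Atp2a1 from 0.14 to 0.08 and Hrc from 0.18 to 0.10. None of the 3 log2 ratios passed an exact permutation test: the difference was -0.12 for Sln to Atp2a1 (p = 0.847, adjusted p = 0.926), -0.16 for Casq2 to Casq1 (p = 0.655, adjusted p = 0.843) and -0.16 for Atp2a2 to Atp2a1 (p = 0.321, adjusted p = 0.577).

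The third comparison sets the casted mice with MOTS-c against the uncasted mice, and shares its groups with the other two. By limma, Sln was higher and 8 genes were lower, where 26.0% of all genes were higher and 24.7% lower. Here too Sln entered the test through the casted groups. Ranges did not overlap for 4 lower genes (Casq1, Sypl2, Pvalb and Srl) and for Sln, where 8.15% of all genes lay wholly lower and 7.26% wholly higher. Sln was 3.40 ± 0.39 higher, Sypl2 -1.84, Casq1 -1.83, Pvalb -1.46 and Srl -0.87 lower. Hrc and Atp2a1 were both -0.40, and in each of them 7 of 8 mice lay below all uncasted ones. Atp2a2 gave -0.41 (limma adjusted p = 0.00754). On the deposited TPM these 3, and Casq2, turned to small positive differences between 0.02 and 0.04 that did not pass.

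Casq2 did not pass (-0.40, limma adjusted p = 0.1004), but did without MOTS-c replicate 3, the mouse at 27.5 scaled TPM (-0.52, limma adjusted p = 0.0251), or without casted replicate 2, which enters through the shared spread (limma adjusted p = 0.0324). It also passed when only casted replicates 5 to 8 entered the fit (limma adjusted p = 0.0411), and not with 1 to 4 (limma adjusted p = 0.118). Pln passed narrowly (-0.32, limma adjusted p = 0.0397) and lost its call on leaving out any of 12 single libraries, 6 of them uncasted (1, 2, 3, 6, 7 and 8) and 6 with MOTS-c (2 to 7), with adjusted p up to 0.101. The calls on the deposited TPM were Sln higher and the same 4 genes lower, where 60.0% of all genes were higher and 6.94% lower. The log2 ratio of Sln to Atp2a1 was 5.08 higher, or 33.8-fold (exact permutation test, two-sided, p = 0.0001554, adjusted p = 0.000466), at a median of 575 Atp2a1 transcripts per Sln transcript. Across 4 alternative settings this difference lay between 3.60 and 5.08.

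**Figure D3:**
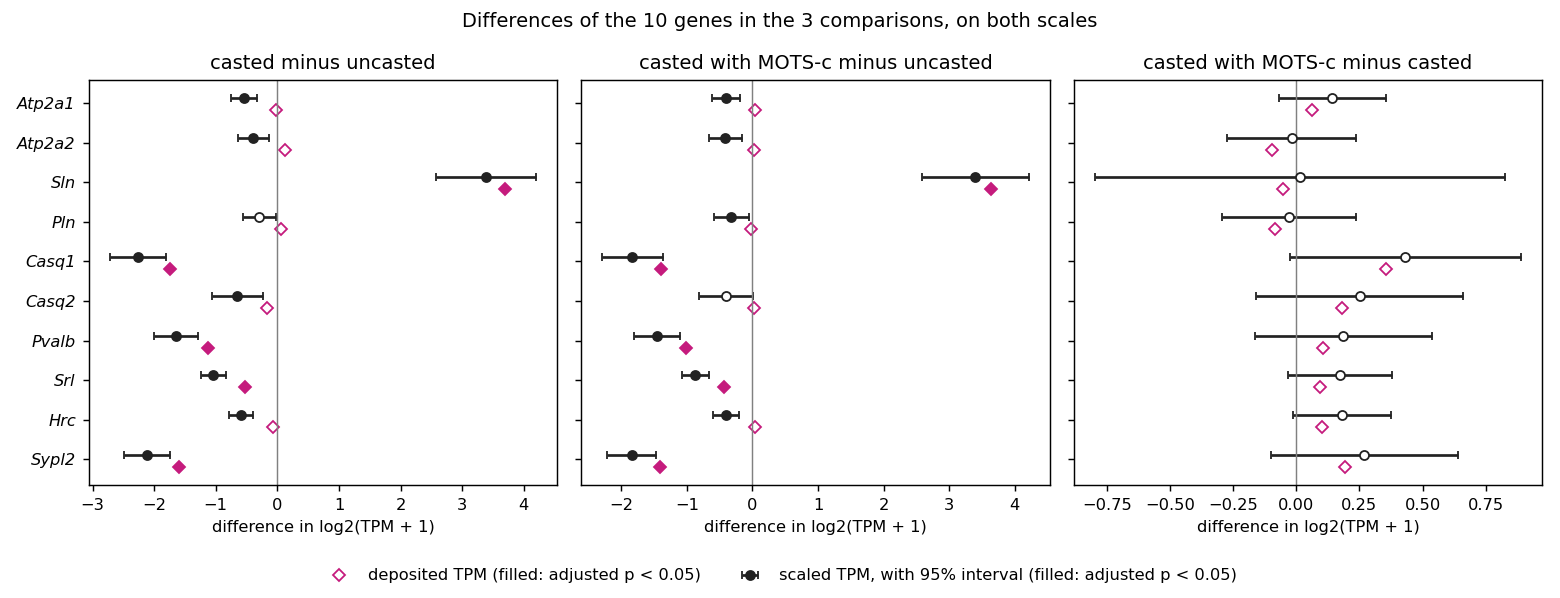
Differences in log2(TPM + 1) (x axis) of the 10 genes (y axis) in the 3 comparisons, on scaled TPM with 95% intervals from limma (circles) and on deposited TPM (diamonds); filled symbols have an adjusted p under 0.05. Against uncasted mice, Sln lay to the right and Casq1, Pvalb, Srl and Sypl2 to the left on both scales, the diamonds of the other 5 genes were open near 0, and no symbol was filled for MOTS-c against casting.

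How the genes varied from mouse to mouse was read from their log2 values as deviations from the group means over 24 libraries. These correlations are descriptions, with no test, and all genes in a library share its depth, its scaling and its makeup. Of 45 pairs, 9 had a Pearson r above 0.6 and 3 below -0.6. Casq1 went with Pvalb (Pearson 0.92, Spearman 0.84) and with Sypl2 (0.83 and 0.85), and these stayed at 0.84 and 0.78 without the 2 libraries farthest from the median of Casq1. Sln went against Casq1 (Pearson -0.83, Spearman -0.73, and -0.69 without the 2 farthest) and against Pvalb (-0.78, -0.67 and -0.62). On the deposited TPM the same pairs gave 0.91, 0.79, -0.87 and -0.87. Pvalb and Sypl2 had 0.62 (Spearman 0.54, and 0.43 without the 2 farthest), below Casq1 and Hrc (0.69), Hrc and Sypl2 (0.68) and Casq1 and Srl (0.66). Without the 2 libraries farthest from the median of the gene named first, those last 3 pairs went to 0.42, 0.34 and 0.28. Likewise Pvalb and Srl went from 0.60 to 0.11, Pvalb and Hrc from 0.62 to 0.24, and Srl and Hrc from 0.63 to 0.26. In the casted groups, mice with more Sln than their group's mean tended to have less Casq1 and Pvalb.

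Within the groups of 8, Sln and Casq1 had r = -0.83 in casted mice and -0.90 in casted mice with MOTS-c, or -0.82 without replicate 5, while in uncasted mice it was 0.02. Sln and Pvalb had 0.25 in uncasted mice, -0.88 in casted mice, and -0.80 with MOTS-c, which went to -0.45 without replicate 5. For Casq1 and Sypl2 the values were 0.87 in uncasted, 0.86 in casted and 0.82 in casted mice with MOTS-c, or 0.74 without replicate 5. For Casq1 and Pvalb they were 0.77, 0.93 and 0.94, and the last went to 0.66 without replicate 5. Casq2 did not follow Casq1 (0.17 over all 24 libraries), nor did Atp2a1 follow Sln closely (-0.30). As sets of 4, casted replicates 1 to 4 had the smaller and 5 to 8 the larger changes in Sln, Casq1, Pvalb and Sypl2. Single mice of the sets overlapped for Sln and Sypl2. Replicate 3 had the lowest casted Sypl2, at 32.3 scaled TPM, and replicate 2 had more Sln than replicate 6 (17.4 and 16.9). For Casq1 and Pvalb the sets did not overlap, so the correlations in casted mice include the difference between the sets. No correlation was computed within a set.

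**Figure D4:**
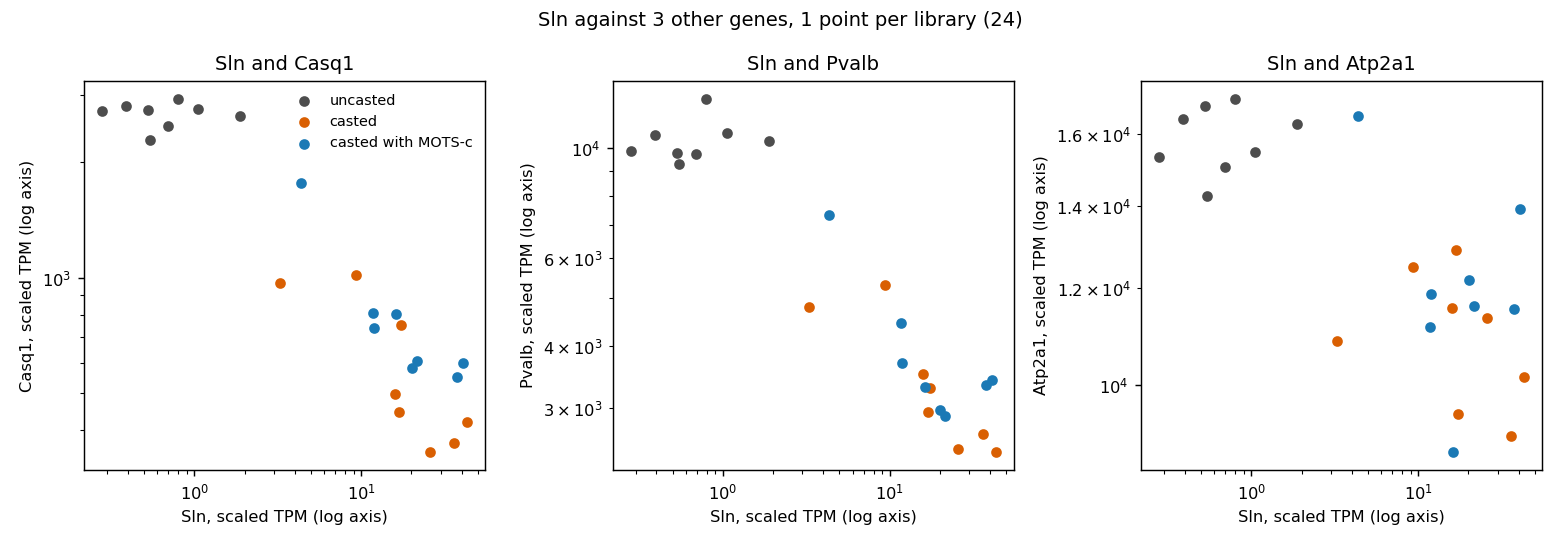
Sln against Casq1, Pvalb and Atp2a1 (both axes in scaled TPM, logarithmic), 1 point per library coloured by group. In the casted groups Casq1 and Pvalb were lower where Sln was higher, with MOTS-c replicate 5 (Sln 4.33, Casq1 1765) nearest to the uncasted mice, and Atp2a1 showed little such order.

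The genes whose deviations were most like those of Sln, among 7974 genes with a mean of at least 5 scaled TPM, were Gdi2 (0.87), Prkcq (0.86), Pa2g4, Elac2 and Golga5 (0.85 each). Those most like Atp2a1 were Rtn2 (0.90), Aldoa (0.90), which encodes a glycolytic enzyme, Prr33 (0.89), Ckm (0.87), which encodes muscle creatine kinase, and Cs (0.87), which encodes citrate synthase. Those most like Casq1 were Mical2 (0.94), Nrep, Nfib, Eml1 and Sh3bgr (0.93 each). All values are Pearson correlations over 24 libraries on the scaled values, picked as the highest of many. They were not repeated on the deposited TPM or without MOTS-c replicate 5. Among the genes described here, the highest correlation of Atp2a1, with Hrc, went from 0.56 to 0.22 on the deposited TPM.

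Of 72 other genes of calcium handling from lists of known function, 66 were tested, and with casting 13 were higher and 32 lower by limma, with a median of -0.15, where 28.7% of all tested genes were higher and 27.7% lower. The deposited TPM gave 39 higher and 8 lower, where 62.2% of all tested genes were higher and 7.43% lower, so directions of lists and genes are relative to the middle of all genes, and counts on the deposited TPM stand beside them. With MOTS-c against casting none of the 66 was called by limma.

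Among other pumps and small pump regulators 2 of 5 tested fell and none rose, against 1 lower and 2 higher on the deposited TPM. Mrln, whose frame is printed above, had lowest, median and highest scaled TPM of 70.4, 82.6 and 95.6 in uncasted and 29.97, 42.9 and 64.4 in casted muscle, a fall of -0.91 ± 0.17 (limma adjusted p = 6.28e-05), or -0.40 on the deposited TPM (limma adjusted p = 0.0236). The ranges did not overlap, so one small inhibitor was lower while Sln was higher. In uncasted muscle the mean of Mrln was 83.1 ± 9.35 and that of Sln 0.771 ± 0.510, and in casted muscle they were 45.3 ± 13.9 and 21.0 ± 13.3 (SD, n = 8), so Mrln remained the more abundant by mean.

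In the release unit and triad 2 of 12 rose and 7 fell, against 6 and 2 on the deposited TPM. Cacng1, the gamma subunit of the voltage sensor in the transverse tubule, rose by 1.93 ± 0.16 (limma adjusted p = 6.34e-10), with all 8 casted mice above all uncasted ones, at means of 773 ± 119 and 200.2 ± 11.1 (SD, n = 8). Jph2 encodes junctophilin 2, which ties the tubule to the reticulum, and fell by 1.95 ± 0.19 (limma adjusted p = 8.09e-09), from 253 ± 17.8 to 68.1 ± 24.8. Sypl2, the junction gene described above, had -2.11.

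Of the lumen binders outside the named buffers 5 of 9 rose and 2 fell, with a median of 0.30, and on the deposited TPM 7 rose and none fell. P4hb, protein disulfide isomerase, a folding enzyme that binds calcium, rose by 0.97 ± 0.10 (limma adjusted p = 2.24e-08), and Rcn3, a reticulocalbin of the secretory pathway, fell by 0.73 (limma adjusted p = 0.00336) but by 0.27 on the deposited TPM without passing (limma adjusted p = 0.255). Other reticulum membrane proteins gave 2 higher and 2 lower of 5 (4 and 0 on the deposited TPM), with Tmem38b, a cation channel of the reticulum, up by 0.63 and Atl2, an atlastin that fuses reticulum tubules, down by 0.62, the latter not called on the deposited TPM (-0.11, limma adjusted p = 0.262).

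Of 14 cytosolic calcium binders and signalling genes 9 fell and 2 rose, against 5 and 6 on the deposited TPM. Tnnc2, troponin C of fast fibres, fell by 1.20 ± 0.13 (limma adjusted p = 4.28e-08) from a mean of 16704 to 7386 scaled TPM, and Camk2b, a calcium-activated kinase, rose by 0.93 ± 0.07 (limma adjusted p = 8.26e-11). For store-operated entry 4 of 7 fell (none on the deposited TPM, where 3 rose), led by Stim2, a calcium sensor of the reticulum (-0.67, not called on the deposited TPM at -0.17, limma adjusted p = 0.154). Of 5 genes of export across the plasma membrane 4 fell and 1 rose (none and 2 on the deposited TPM), with the sodium-calcium exchangers Slc8a3 at -0.82 (-0.33 on the deposited TPM, limma adjusted p = 0.0812) and Slc8a1 at 0.53. Of the genes of mitochondrial uptake and export 1 of 9 was higher and 2 were lower, while on the deposited TPM all 9 were higher. Micu2, a gatekeeper of the uniporter, rose by 0.49, and Mcu, the pore, fell by 0.24 on the scaled values but was 0.26 higher on the deposited TPM (limma adjusted p = 0.00721).

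**Figure D5:**
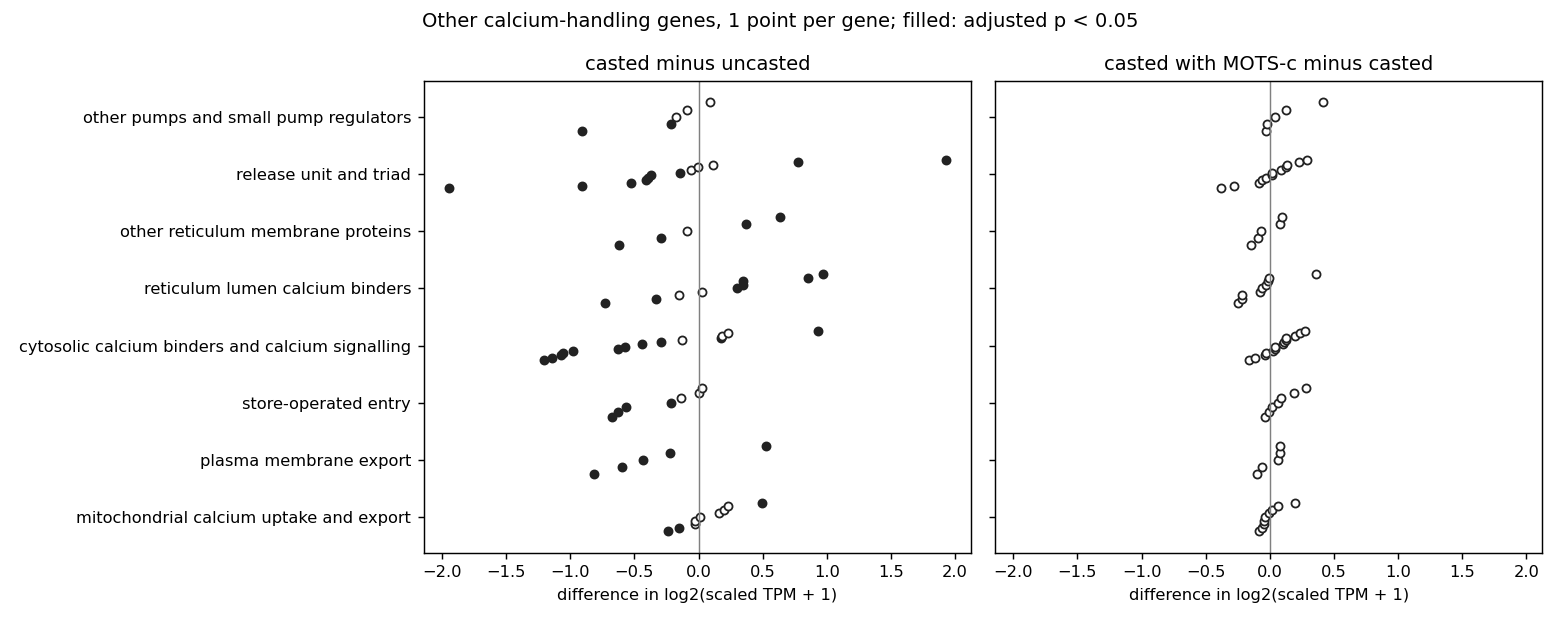
Difference in log2(scaled TPM + 1) (x axis) of the 66 other calcium-handling genes in 8 lists (y axis) for casting and for MOTS-c against casting, with 1 point per gene and filled points at an adjusted p under 0.05. With casting 13 points were filled on the right and 32 on the left, Jph2 and Cacng1 lay farthest out at -1.95 and 1.93, and no point was filled for MOTS-c.

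Marker transcripts of fibres and of other cell types also differed between the groups. Beside the counts with casting below, 28.7% of all tested genes were higher and 27.7% lower on the scaled values. On the deposited TPM these shares were 62.2% and 7.43%. Of the fibre markers 7 of 8 fast and 7 of 8 slow genes fell with casting, while 1 fast gene rose; on the deposited TPM 5 fast and 4 slow genes fell. Macrophage markers went from a summed median of 40.7 (range 36.7 to 51.9) to 81.1 (53.7 to 134) and 109 (68.9 to 143) scaled TPM in uncasted, casted and casted mice with MOTS-c, with 4 of 6 higher with casting, and 6 of 6 on the deposited TPM. The sums of the 2 casted groups overlapped, and 0 of these 6 were called for MOTS-c against casting, where 0.0204% of all tested genes were called. Schwann and nerve markers (4 of 6 lower, medians 118 and 84.4) and fibroblast markers (4 of 6 lower, 669 and 471) were lower on the scaled values, and on the deposited TPM 2 Schwann and 3 fibroblast genes were lower and 2 fibroblast genes higher. Of 5 adipocyte markers 1 was higher, and 4 on the deposited TPM. None of these sums was used as a covariate, and their part in the changes of the 10 genes was not tested. Whether a number of transcripts stands for a number of pumps or buffer molecules was not measured.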

How the data were processed

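Poly-A RNA was sequenced from the gastrocnemius of 24 mice, and the authors deposited TPM per gene. FastQC, STAR, RSEM, DESeq2 and GRCm38.p6 are named in the submitters' processing notes, with no role or version, and depth is unknown. IDs were matched to GENCODE symbols on GRCm38 (55227 of 55487). TPM was scaled by a trimmed mean of log ratios (30% of ratios and 5% of levels trimmed). Genes with at least 0.5 TPM in 8 libraries (14690) were tested on log2(scaled TPM + 1) in 1 fit of 3 groups with limma 3.58.1 (R 4.3.3), with Benjamini-Hochberg adjustment within each comparison at 0.05. Sln passed this filter through the casted groups, and the other 9 genes passed in all 24 libraries. Ratios of deposited TPM were compared by exact permutation tests over 12870 assignments, adjusted over 9 tests. Near copies were searched with blastn 2.17.0, and tables were made with Python 3.11.15. Both tests were tested on simulated data. All 10 genes are named, and of each calcium list the largest rise and fall past the threshold with casting; likeness was ranked for Sln, Atp2a1 and Casq1. The genes and lists were chosen with earlier results of these data known. The samples were treated as unpaired. Same-numbered mice had mean correlations of 0.048 (uncasted and casted), 0.086 (uncasted and casted with MOTS-c) and 0.0037 (casted and casted with MOTS-c). Low correlations do not settle whether the numbers pair samples. Alternatives were other scalings, pseudocounts and filters, subsets of casted mice, a replicate block and each library left out.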

Additional observations from a re-analysis of the deposited data

Results flagged for a closer look

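In 39 groups of 8 values, a library whose gap to the nearest other library exceeded 0.526 of the group's range stood apart, which chance gives in about 5% of groups. Among casted mice with MOTS-c, replicate 5 had Casq1 at 1765 scaled TPM (next highest 811), Pvalb at 7317 (next 4445) and Srl at 556 (next 397), and replicate 6 had Atp2a2 at 53.1 (next lowest 75.002). Casted replicate 2 had Casq2 at 30.5 (next highest 12.5). Uncasted replicate 8 had Pvalb at 12550.2 (next highest 10688).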

How the results depend on the processing

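Depth is unknown, so counting error of low genes such as Pln and uncasted Sln cannot be given. On the deposited TPM, and scaled to the total without mitochondrial genes, 4 of the 10 genes were lower in place of 8, with casting and with casting and MOTS-c. Directions turned on the deposited TPM for casting in Atp2a2 (0.12; 0.016 without mitochondrial genes), Pln (0.061) and Mcu (0.26; 0.16 without mitochondrial genes), and for casting with MOTS-c in Atp2a1 (0.041), Atp2a2 (0.023), Casq2 (0.017) and Hrc (0.034). With TPM of at least 1 in all 24 libraries Sln was not tested, so 0 genes were higher in both comparisons. For MOTS-c against casting, casted mice 1 to 4 alone turned Casq1 (-0.057), Pln (0.012), Pvalb (-0.14), Sypl2 (-0.012) and the ratios of Casq2 to Casq1 (0.15) and Sln to Atp2a1 (0.69). Casted mice 5 to 8 alone turned Atp2a2 (0.042) and Sln (-0.72, against 0.74 with mice 1 to 4) and called 1 gene higher, Casq1; all genes then gave 678 higher and 837 lower, against 2 and 1. Sln also turned on the deposited TPM (-0.055), without mitochondrial genes (-0.031) and with no filter (-0.00111). The cause was not tested. Leaving out each library gave 8 to 9 genes lower for casting, 7 to 9 for casting with MOTS-c, 1 higher in both and 0 for MOTS-c. It moved the MOTS-c differences of Atp2a2 between -0.055 and 0.063, Pln between -0.099 and 0.016 and Sln between -0.28 and 0.27. The log2 ratios for MOTS-c went from -0.31 to 0.025 (Casq2 to Casq1) and from -0.45 to 0.23 (Sln to Atp2a1), and that of Atp2a2 to Atp2a1 for casting with MOTS-c from -0.13 to 0.060. With the replicate number as a block, 1 gene was higher and 8 lower in both comparisons with uncasted mice and 0 for MOTS-c, while all genes gave 13 higher and 5 lower for MOTS-c; same-numbered mice of 2 groups correlated between -0.24 and 0.37, and 1, 4 and 2 of 8 correlated best with their own number.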
